A study of Mus musculus with 12 samples.

Results

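The genes described here are the Wnt ligands, their Frizzled receptors, and the secreted antagonists of the Sfrp and Dkk families, in the mouse cell line C2C12, whose myoblasts fuse into myotubes when serum is lowered. They were chosen by name: every row of the count table whose symbol was Wnt, Fzd, Sfrp or Dkk followed by a number, with an a or b for Wnt. That gave 37 of 21232 genes, made up of 19 Wnt ligands, 10 Frizzleds, 4 Sfrp genes and 4 Dkk genes. RNA was sequenced in 12 libraries, 3 (A, B and C) in each of 4 groups. The groups were cells differentiated for 48 h with TNF alpha at 10 ng/ml (TNF), cells at 48 h of differentiation after silencing of Fbxl2 by siRNA (Fbxl2 siRNA), cells at 48 h of differentiation (Control), and dividing myoblasts in growth medium at 0 h (Proliferation). The labels give the strain of all 4 groups as C57BL/6. Fbxl2 encodes the substrate-binding F-box protein of a ubiquitin ligase, and the study's title concerns the control of its promoter by TNF and the transcription factor SP1.

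Wnt proteins are secreted, lipid-modified ligands that bind Frizzled receptors. With the co-receptors Lrp5 and Lrp6 they stabilise beta-catenin, which acts with TCF and LEF factors on target genes such as Axin2, and through other co-receptors they act on cell polarity and calcium. Sfrp proteins carry a Frizzled-like domain that binds Wnt ligands, whereas Dkk proteins of the Dkk1, Dkk2 and Dkk4 type bind Lrp5 and Lrp6. In muscle, Wnt signals take part in the formation of the first myoblasts in the embryo, in the activation of satellite cells and in their differentiation and fusion.

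Library totals ran from 26416978 to 32917763 counts, and 3 counts, taken as the floor of a library, corresponded to 0.0911 to 0.114 CPM, where CPM is the count of a gene scaled to a common library size. The labels name no separate cultures, so a p-value here measures the spread between libraries and that spread may be technical; nor do they say whether Control or TNF cells were given a non-targeting siRNA. Fbxl2 itself stood at 22.2 ± 1.52 CPM in Fbxl2 siRNA cells and 32.9 ± 1.304 CPM in Control cells (SD, n = 3 each). It averaged 28.9 ± 1.05 CPM in TNF cells and 25.95 ± 1.71 CPM in Proliferation cells (SD, n = 3 each). No groups overlapped, and the Fbxl2 siRNA libraries lay just below the Proliferation libraries. The muscle factor Myod1 averaged 44.6 ± 2.01 CPM in TNF cells, 55.1 ± 2.73 CPM in Fbxl2 siRNA cells, 97.2 ± 3.55 CPM in Control cells and 74.7 ± 1.59 CPM in Proliferation cells (SD, n = 3 each). Myogenin, Myog, averaged 79.9 ± 10.6 CPM in TNF cells, 104.2 ± 23.9 CPM in Fbxl2 siRNA cells, 302.3 ± 22.0 CPM in Control cells and 22.5 ± 2.31 CPM in Proliferation cells (SD, n = 3 each). Nfkbia, a gene induced by TNF signalling, stood at 148 ± 2.02 CPM in TNF cells and 23.5 ± 1.64 CPM in Control cells (SD, n = 3 each). The 6 myotube markers (Myog, Mymk, Myh3, Ckm, Acta1 and Tnnt3) together gave 477 to 661 CPM in TNF libraries, 688 to 1081 CPM in Fbxl2 siRNA libraries, 2161 to 2577 CPM in Control libraries and 46.9 to 61.4 CPM in Proliferation libraries. The 5 fibroblast markers (Pdgfra, Dcn, Lum, Col1a1 and Thy1) summed to 2061 to 2166 CPM in TNF libraries, 1563 to 1679 CPM in Fbxl2 siRNA libraries, 2274 to 2342 CPM in Control libraries and 461 to 612 CPM in Proliferation libraries, with Thy1 at 0 in the TNF, Control and Proliferation libraries. The 4 myoblast markers (Myod1, Myf5, Des and Cdh15) summed to 968 to 1026 CPM in TNF libraries, 1698 to 1787 CPM in Fbxl2 siRNA libraries, 1720 to 1788 CPM in Control libraries and 1395 to 1543 CPM in Proliferation libraries. Of these 4, 1 was higher and 2 were lower in Fbxl2 siRNA over Control cells in the test described below, so their sum covers opposite changes. No library held over 2.62 CPM of the 4 endothelial markers or over 2.95 CPM of the 5 macrophage markers, and the macrophage marker Adgre1 was at 0 in every library. In bulk RNA, fewer cells of a kind and less RNA per cell cannot be told apart, and the part of the myotube, myoblast and fibroblast markers in the results that follow was not tested.

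These promoter sequences are shown because they belong to the members with the largest changes given later: Wnt6, which rose most with TNF, and Dkk2 and Sfrp2, which rose and fell most after Fbxl2 siRNA. They were chosen after the values had been seen. Each is the 250 bases before the gene's start in RefSeq's table for GRCm38.p6, read 5′ to 3′ on the strand of the gene, with GC boxes in capitals. A GC box, the element that SP1 binds, was searched as GGGCGG on both strands, so that CCGCCC marks one on the other strand. The window of Wnt6 is chr1:74771642-74771891 on the plus strand, that of Dkk2 is chr3:132085042-132085291 on the plus strand, and that of Sfrp2 is chr3:83766071-83766320 on the plus strand.
Wnt6: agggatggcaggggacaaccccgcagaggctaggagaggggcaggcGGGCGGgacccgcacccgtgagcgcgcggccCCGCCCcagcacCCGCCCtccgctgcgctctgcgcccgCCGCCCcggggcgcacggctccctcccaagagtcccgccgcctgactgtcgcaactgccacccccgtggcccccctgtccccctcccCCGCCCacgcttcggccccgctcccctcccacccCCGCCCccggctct
Dkk2: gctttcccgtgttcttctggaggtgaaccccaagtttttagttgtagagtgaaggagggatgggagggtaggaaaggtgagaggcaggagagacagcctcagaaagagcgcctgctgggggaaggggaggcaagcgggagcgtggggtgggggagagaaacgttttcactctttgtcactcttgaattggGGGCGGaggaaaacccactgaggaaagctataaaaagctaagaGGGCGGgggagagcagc
Sfrp2: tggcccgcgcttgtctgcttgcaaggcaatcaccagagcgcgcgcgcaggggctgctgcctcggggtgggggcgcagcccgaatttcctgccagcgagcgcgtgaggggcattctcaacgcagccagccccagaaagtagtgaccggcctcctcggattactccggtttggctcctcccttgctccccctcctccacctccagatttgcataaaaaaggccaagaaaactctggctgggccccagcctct
The Wnt6 window held 6 GC boxes, whose first bases lay 204, 173, 161, 135, 48 and 14 bases before the start. The Dkk2 window held 2, at 60 and 17 bases before the start, and the Sfrp2 window held 0. Of all 32851 windows of this length in the table, 32.7% held a GC box. An E-box, the element of MyoD and its relatives, was searched as CANNTG, which reads the same on both strands and can overlap a GC box by its letters at either end. It occurred once in the Wnt6 window, 84 bases before the start, and in neither of the others, against 66.2% of all windows. A kB-type site, searched as GGANTTTCC on both strands, was in none of the 3 windows and in 1.07% of all windows. Of the 25 detected members, 15 had a window in the table (18 windows in all), and 11 of them held a GC box, 11 an E-box and 1 (Wnt5b) a kB-type site. Wnt10a and Wnt7b had no window. A member counted when any of its windows matched, so these counts are not on the scale of the shares of all windows. G and C made up 79.6% of the Wnt6 window, 55.6% of the Dkk2 window and 63.6% of the Sfrp2 window. The part of this composition in the matches was not tested. These matches describe letters only, and no binding was measured in these files.

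At least 10 counts summed over the 12 libraries, the threshold taken for detection, were found for 25 of the 37 members. They were 11 of 19 Wnt ligands (Wnt2b, Wnt4, Wnt5a, Wnt5b, Wnt6, Wnt7b, Wnt9a, Wnt10a, Wnt10b, Wnt11 and Wnt16), 9 of 10 Frizzleds (Fzd1 to Fzd9), 3 of 4 Sfrp genes (Sfrp1, Sfrp2 and Sfrp4) and 2 of 4 Dkk genes (Dkk2 and Dkk3). No count was found for Fzd10, Wnt3, Wnt3a, Wnt8a or Wnt9b. Wnt1 had 8 counts in all, Sfrp5 had 4, Wnt8b had 3, and Dkk1, Dkk4, Wnt2 and Wnt7a had 1 each. The ligands best known as laboratory activators of the pathway (Wnt1 and Wnt3a), the ligand Wnt7a that acts through Fzd7 on satellite cells in the mouse, and the antagonist Dkk1 were therefore not detectable at this depth. Wnt1, with 8 counts, lay just under the threshold and Wnt16, with 18, just above it. Wnt16 had 8, 4 and 3 counts in TNF libraries A, B and C, 0 in each Fbxl2 siRNA library, 2, 0 and 1 in Control libraries and 0 in each Proliferation library. It lay below the filter on low counts, and 24 members were tested among 12736 genes.

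Several Wnt genes lie beside each other. Wnt6 (GRCm38 chr1:74771892-74785322) and Wnt10a (chr1:74791516-74804179) lie 6.2 kb apart on the same strand with no coding gene between them, and both were detected. In the other close pairs only one partner was detected or neither was: Wnt10b without Wnt1 (11.7 kb apart), Wnt9a without Wnt3a (16.2 kb), and neither Wnt9b nor Wnt3 (24.3 kb). For 6 detected members (Fzd5, Fzd6, Sfrp2, Wnt5a, Wnt7b and Wnt11) an antisense gene overlaps an exon. No source used here gives the strand setting of the counting, so antisense reads could not be told apart from those of the member; none of these antisense genes has a row of its own in the table.

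Compared as CPM per kb of exon, which allows levels of different genes to be set side by side, the 11 detected ligands summed to 76.7 ± 1.42 in TNF cells, 21.0 ± 0.136 in Fbxl2 siRNA cells, 40.1 ± 0.754 in Control cells and 14.4 ± 0.554 in Proliferation cells (SD, n = 3 each). Wnt10a, a ligand of the beta-catenin branch that holds back fat cell formation in the mouse, led in every group, with 79.3% of the sum in TNF cells, 43.8% in Fbxl2 siRNA cells, 47.7% in Control cells and 44.2% in Proliferation cells. Wnt9a, known for its part in joint formation, came second, with 7.94%, 27.0%, 37.9% and 19.7% of the sum in TNF, Fbxl2 siRNA, Control and Proliferation cells. The ligand at the next place differed between groups: Wnt6 in TNF cells with 6.94%, Wnt7b in Fbxl2 siRNA cells with 19.0%, Wnt10b in Control cells with 5.17% and Wnt7b in Proliferation cells with 19.3%. In Proliferation cells Wnt9a (2.83 ± 0.150 CPM per kb) and Wnt7b (2.76 ± 0.138 CPM per kb) differed by less than their SD. With the length of the longest transcript in place of all exons, Wnt7b stood above Wnt9a in Fbxl2 siRNA and in Proliferation cells.

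**Figure D1:**
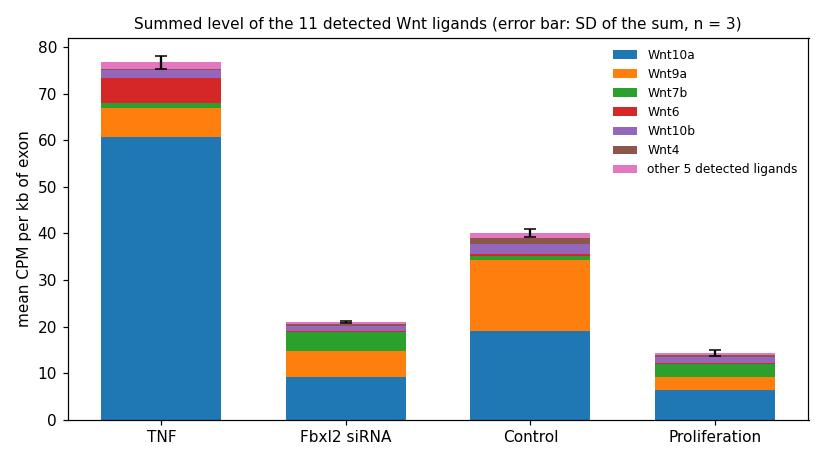
Mean CPM per kb of exon (y axis) of the 11 detected Wnt ligands, stacked by ligand, in the 4 groups (x axis); error bars are the SD of the sum over 3 libraries. The TNF bar stands at 76.7 and is mostly Wnt10a, and Wnt7b is a visible share in Fbxl2 siRNA and Proliferation cells.

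A gene was called where edgeR's quasi-likelihood test, fitted to all 12 libraries, gave a Benjamini-Hochberg adjusted p under 0.05 over all 12736 genes, and log2 fold changes are given with their standard error (SE). In Control over Proliferation cells, which asks what 48 h of differentiation did, 15 of the 24 tested members were higher, 4 were lower and 5 were not called. Among all genes tested, 38.4% were called higher and 38.9% lower, and the median log2 fold change was -8e-04, against 1.18 for the members. A change of at least 2-fold was called for 16 members (66.7%), against 20.3% of all genes.

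In TNF over Control cells, 8 members were higher, 7 were lower and 9 were not called, with a median log2 fold change of 0.13. Among all genes 31% were called higher and 23.6% lower, with a median of 0.03, so the members' share called was near that of all genes. At least 2-fold changes were called for 8 members (33.3%), against 10% of all genes. In Fbxl2 siRNA over Control cells, 3 members were higher (Dkk2, Wnt7b and Fzd6), 20 were lower and Sfrp4 was not called, with a median log2 fold change of -1.08. Among all genes 34.1% were called higher and 29.8% lower, with a median of 0.03. At least 2-fold changes were called for 18 members (75%), against 10.1% of all genes. Both comparisons use the same Control libraries.

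**Figure D2:**
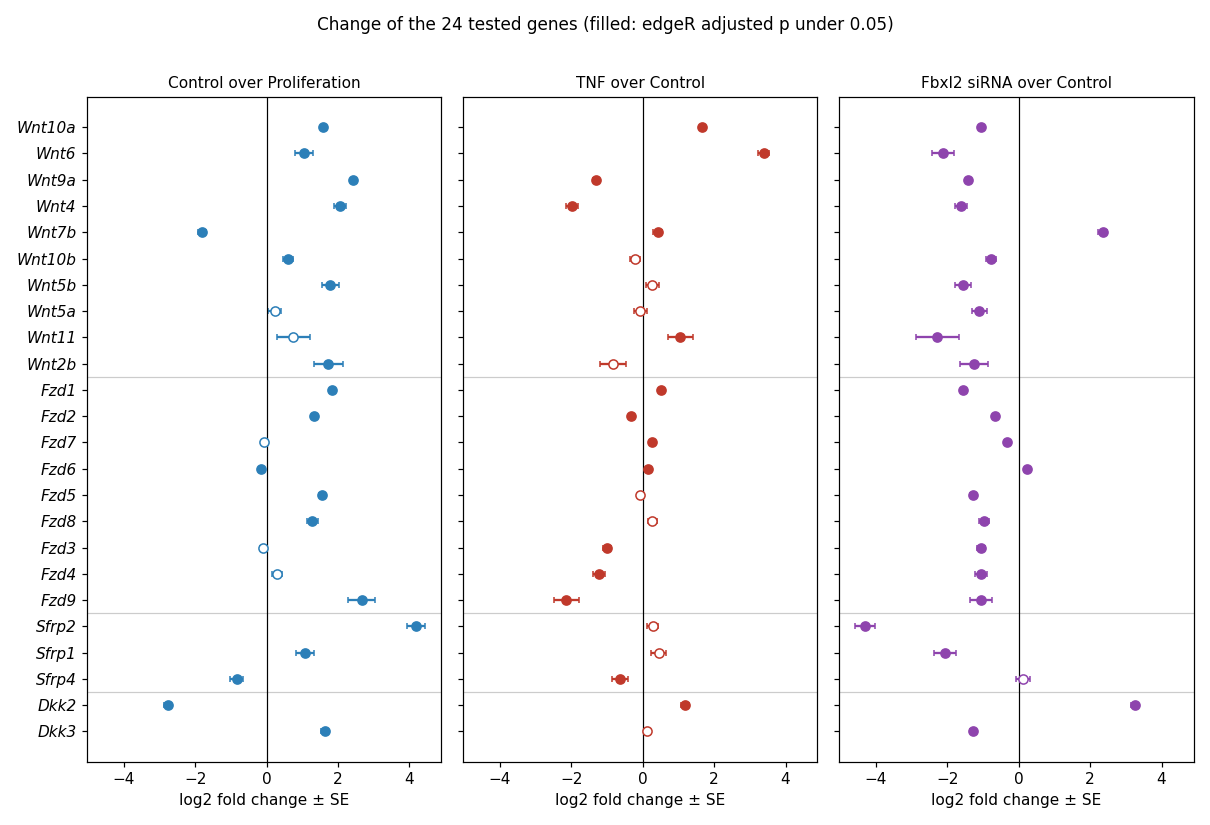
Log2 fold change with its SE (x axis) of each of the 24 tested members (rows) in 3 comparisons; filled points have an edgeR adjusted p under 0.05. In the Fbxl2 siRNA panel 20 filled points lie left of 0 and 3 (Wnt7b, Fzd6 and Dkk2) right of it, whereas the TNF panel holds 8 to the right and 7 to the left.

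Wnt6 and Wnt10a were the ligands that rose most with TNF. Wnt6, expressed in embryonic epithelia beside the somites, had 11.8, 10.9 and 12.3 CPM in TNF libraries A, B and C, 0.249, 0.374 and 0.114 CPM in Fbxl2 siRNA libraries, 1.23, 1.22 and 0.863 CPM in Control libraries, and 0.559, 0.409 and 0.625 CPM in Proliferation libraries. The TNF libraries stood far above all others, the Fbxl2 siRNA libraries were the lowest, and no groups overlapped. The log2 fold change was 3.39 (SE 0.15, edgeR adjusted p = 1.08e-13) in TNF over Control cells and -2.13 (SE 0.30, adjusted p = 3.69e-06) in Fbxl2 siRNA over Control cells. In Fbxl2 siRNA libraries A, B and C these values rest on 7, 11 and 3 counts. Set directly against each other, TNF over Fbxl2 siRNA cells differed by 5.52 (SE 0.20, adjusted p = 2.59e-15) on the log2 scale.

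Its neighbour Wnt10a had 146.9, 149.5 and 153.9 CPM in TNF libraries, 22.9, 23.8 and 21.4 CPM in Fbxl2 siRNA libraries, 47.1, 48.1 and 46.4 CPM in Control libraries, and 15.8, 14.8 and 16.3 CPM in Proliferation libraries. The order of the groups was the same in every library: TNF highest, then Control, then Fbxl2 siRNA, then Proliferation. TNF over Control cells gave 1.67 (SE 0.05, adjusted p = 6.17e-17) and Fbxl2 siRNA over Control cells -1.06 (SE 0.05, adjusted p = 9.01e-13) on the log2 scale. Control over Proliferation cells gave 1.59 (SE 0.06, adjusted p = 5.37e-16).

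Wnt9a and Wnt4 rose with differentiation and were below Control in both treated groups. Wnt9a had 20.5, 20.1 and 20.2 CPM in TNF libraries, 19.6, 16.9 and 20.1 CPM in Fbxl2 siRNA libraries, 53.0, 49.9 and 48.9 CPM in Control libraries, and 9.93, 9.34 and 8.94 CPM in Proliferation libraries. The treated groups overlapped each other and lay between Control and Proliferation. The log2 fold change was 2.43 (SE 0.07, adjusted p = 3.91e-17) in Control over Proliferation cells, -1.32 (SE 0.06, adjusted p = 2.65e-13) in TNF over Control cells and -1.42 (SE 0.06, adjusted p = 1.8e-13) in Fbxl2 siRNA over Control cells. TNF over Fbxl2 siRNA cells gave 0.10 (SE 0.07, adjusted p = 0.196). Wnt4, a ligand that helps to keep satellite cells quiescent in the mouse, had 1.54, 1.29 and 1.17 CPM in TNF libraries, 1.74, 1.498 and 1.97 CPM in Fbxl2 siRNA libraries, 5.39, 5.82 and 4.78 CPM in Control libraries, and 0.987, 1.23 and 1.61 CPM in Proliferation libraries. Only the Control libraries stood apart, above the other 9. Wnt4 fell by 1.99 (SE 0.17, adjusted p = 2.08e-09) on the log2 scale in TNF over Control cells, with -1.62 (SE 0.16, adjusted p = 2.4e-08) in Fbxl2 siRNA over Control cells. The summed myotube and fibroblast markers were likewise highest in Control libraries. Of the 4 fibroblast markers tested, 1 was higher and 2 were lower in TNF over Control cells, and equally in Fbxl2 siRNA over Control cells. The part of the myotube and fibroblast markers in the Wnt9a and Wnt4 results was not tested.

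Wnt7b, a ligand of lung and bone development, went the other way. It had 4.73, 5.88 and 4.78 CPM in TNF libraries, 17.2, 21.5 and 19.9 CPM in Fbxl2 siRNA libraries, 3.09, 4.21 and 4.32 CPM in Control libraries, and 12.8, 13.9 and 13.9 CPM in Proliferation libraries. The Fbxl2 siRNA and Proliferation libraries were high, the TNF and Control libraries low, and no groups overlapped. The log2 fold change was -1.82 (SE 0.12, adjusted p = 1.69e-11) in Control over Proliferation cells and 2.35 (SE 0.12, adjusted p = 7.89e-13) in Fbxl2 siRNA over Control cells. In TNF over Control cells it was 0.41 (SE 0.14, adjusted p = 0.0147), and this call was lost without TNF library B (0.31, adjusted p = 0.0956) or without Control library A (0.26, adjusted p = 0.123).

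**Figure D3:**
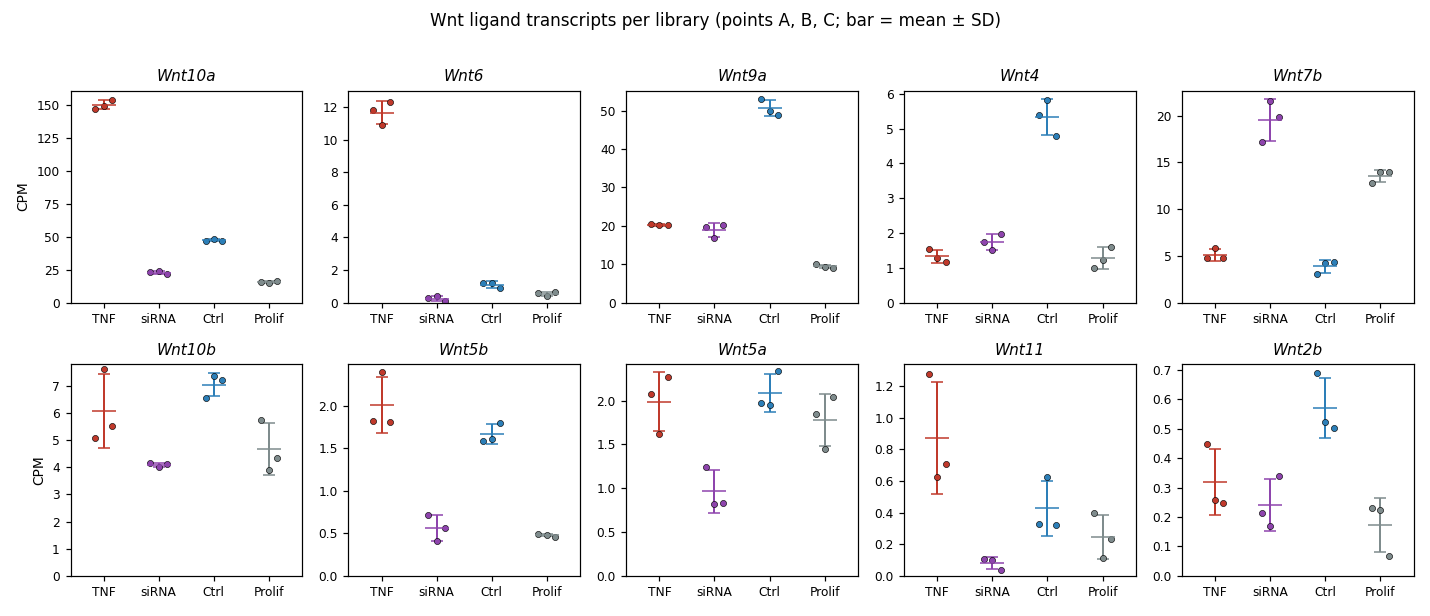
CPM (y axis, from 0, scaled for each gene) of the 10 tested Wnt ligands in each library of TNF, Fbxl2 siRNA (siRNA), Control (Ctrl) and Proliferation (Prolif) cells; points are libraries A, B and C, and bars are the mean ± SD. Wnt6 and Wnt10a are highest in TNF libraries, Wnt9a and Wnt4 in Control libraries, and Wnt7b in Fbxl2 siRNA libraries.

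The other 5 tested ligands were Wnt10b, Wnt5b, Wnt5a, Wnt11 and Wnt2b, and all fell after Fbxl2 siRNA. Wnt10b, which favours muscle over fat fate in mouse myoblasts, had 5.08, 7.61 and 5.53 CPM in TNF libraries, 4.16, 4.02 and 4.12 CPM in Fbxl2 siRNA libraries, 6.56, 7.35 and 7.23 CPM in Control libraries, and 5.75, 3.91 and 4.34 CPM in Proliferation libraries. TNF and Control libraries overlapped, as did Fbxl2 siRNA and Proliferation libraries. Wnt10b gave -0.78 (SE 0.15, adjusted p = 0.000102) in Fbxl2 siRNA over Control cells. Wnt5a and Wnt5b act mainly outside the beta-catenin branch. Wnt5b had 1.82, 2.39 and 1.81 CPM in TNF libraries, 0.710, 0.408 and 0.567 CPM in Fbxl2 siRNA libraries, 1.59, 1.60 and 1.80 CPM in Control libraries, and 0.493, 0.484 and 0.460 CPM in Proliferation libraries. TNF and Control libraries were thus high and the other groups low, with -1.56 (SE 0.23, adjusted p = 4.53e-06) in Fbxl2 siRNA over Control cells. Wnt5a had 2.08, 1.62 and 2.27 CPM in TNF libraries, 1.24, 0.817 and 0.832 CPM in Fbxl2 siRNA libraries, 1.98, 1.95 and 2.34 CPM in Control libraries, and 1.84, 1.45 and 2.04 CPM in Proliferation libraries. Only the Fbxl2 siRNA libraries stood apart, with -1.11 (SE 0.21, adjusted p = 0.000104) over Control cells. TNF over Control cells gave no call for Wnt10b (-0.22, adjusted p = 0.191), Wnt5b (0.27, adjusted p = 0.211) or Wnt5a (-0.06, adjusted p = 0.791). In Control over Proliferation cells Wnt10b gave 0.59 (SE 0.14, adjusted p = 0.000908), Wnt5b gave 1.78 (SE 0.23, adjusted p = 5.37e-07) and Wnt2b gave 1.73 (SE 0.41, adjusted p = 0.000736). The same comparison for Wnt4 gave 2.06 (SE 0.17, adjusted p = 4.94e-10), and that for Wnt6 gave 1.05 (SE 0.25, adjusted p = 0.000848). Wnt5a and Wnt11 were not called there, at 0.22 (SE 0.19, adjusted p = 0.282) for Wnt5a and 0.75 (SE 0.46, adjusted p = 0.147) for Wnt11.

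Wnt11, another ligand of the polarity branch, had 1.28, 0.625 and 0.709 CPM in TNF libraries, 0.107, 0.102 and 0.0378 CPM in Fbxl2 siRNA libraries, 0.330, 0.627 and 0.324 CPM in Control libraries, and 0.395, 0.112 and 0.230 CPM in Proliferation libraries. The Fbxl2 siRNA libraries held 7 counts in all, at or under the floor of a library, and TNF and Control libraries overlapped. It gave -2.29 (SE 0.60, adjusted p = 0.00229) in Fbxl2 siRNA over Control cells. In TNF over Control cells it gave 1.05 (SE 0.36, adjusted p = 0.0175), a call that was lost without TNF library A (0.65, adjusted p = 0.177), Control library A (adjusted p = 0.0822) or Control library C (adjusted p = 0.0703), and with DESeq2 (adjusted p = 0.0688). Wnt2b had 0.448, 0.257 and 0.248 CPM in TNF libraries, 0.213, 0.170 and 0.340 CPM in Fbxl2 siRNA libraries, 0.689, 0.522 and 0.503 CPM in Control libraries, and 0.230, 0.223 and 0.0658 CPM in Proliferation libraries. Control libraries were the highest. It gave -1.26 (SE 0.39, adjusted p = 0.00762) in Fbxl2 siRNA over Control cells and -0.83 (SE 0.36, adjusted p = 0.0567) in TNF over Control cells.

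Of the 9 Frizzleds, 5 were higher and Fzd6 was lower in Control over Proliferation cells, against 38.4% and 38.9% of all genes. In TNF over Control cells 3 were higher and 4 lower, against 31% and 23.6% of all genes. In Fbxl2 siRNA over Control cells Fzd6 was higher and the other 8 lower, against 34.1% and 29.8% of all genes. The summed CPM per kb of the Frizzleds was 125.2 ± 6.85 in TNF cells, 58.1 ± 2.36 in Fbxl2 siRNA cells, 107.3 ± 1.55 in Control cells and 51.9 ± 1.19 in Proliferation cells (SD, n = 3 each). Fzd1 alone made up 57.7% of that sum in TNF cells, 29.4% in Fbxl2 siRNA cells, 47.0% in Control cells and 27.4% in Proliferation cells. Fzd1, Fzd2 and Fzd7, which form one subfamily by sequence, were the leading 3 Frizzleds in every group, except that with the length of the longest transcript Fzd6 stood above Fzd7 in Fbxl2 siRNA cells. In Fbxl2 siRNA cells Fzd2 (18.0 ± 1.34 CPM per kb) and Fzd1 (17.1 ± 0.573 CPM per kb) differed by less than the SD of Fzd2, and in Proliferation cells Fzd1 (14.2 ± 0.808 CPM per kb) and Fzd7 (13.8 ± 0.610 CPM per kb) by less than either SD.

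Fzd1 had 326.1, 284.8 and 299.6 CPM in TNF libraries, 73.9, 69.1 and 72.1 CPM in Fbxl2 siRNA libraries, 216.5, 209.0 and 209.4 CPM in Control libraries, and 63.2, 56.4 and 59.3 CPM in Proliferation libraries. The groups did not overlap, and the Fbxl2 siRNA libraries lay close above the Proliferation libraries. The log2 fold change was 1.83 (SE 0.05, adjusted p = 7.51e-17) in Control over Proliferation cells, 0.52 (SE 0.05, adjusted p = 2.76e-08) in TNF over Control cells and -1.56 (SE 0.05, adjusted p = 6.06e-15) in Fbxl2 siRNA over Control cells. The 4 smooth muscle markers (Myh11, Acta2, Cnn1 and Tagln), of which 3 passed the filter on low counts, summed to 4012 to 4155 CPM in TNF, 1834 to 1963 CPM in Fbxl2 siRNA, 3410 to 3588 CPM in Control and 669 to 675 CPM in Proliferation libraries, the same order of groups, and their part in the result was not tested. Fzd2 had 85.1, 78.3 and 86.7 CPM in TNF libraries, 71.6, 62.3 and 64.2 CPM in Fbxl2 siRNA libraries, 106.9, 106.4 and 103.1 CPM in Control libraries, and 43.2, 41.5 and 42.6 CPM in Proliferation libraries. Control was highest without overlap, with -0.34 (SE 0.05, adjusted p = 1.25e-05) in TNF over Control cells and -0.68 (SE 0.05, adjusted p = 7.78e-10) in Fbxl2 siRNA over Control cells.

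Fzd7, the receptor through which Wnt7a expands mouse satellite cells, had 73.0, 69.8 and 70.8 CPM in TNF libraries and 49.3, 44.5 and 46.7 CPM in Fbxl2 siRNA libraries. It had 56.9, 60.2 and 61.0 CPM in Control libraries, and 63.4, 64.95 and 59.6 CPM in Proliferation libraries. TNF libraries were the highest and Fbxl2 siRNA libraries the lowest, and Control and Proliferation libraries overlapped. TNF over Control cells gave 0.26 (SE 0.05, adjusted p = 0.000145) and Fbxl2 siRNA over Control cells -0.34 (SE 0.05, adjusted p = 7.6e-06). Fzd6, a receptor of the polarity branch, had 46.8, 44.1 and 41.7 CPM in TNF libraries, 45.1, 47.8 and 46.9 CPM in Fbxl2 siRNA libraries, 40.6, 39.3 and 39.5 CPM in Control libraries, and 44.4, 44.9 and 43.8 CPM in Proliferation libraries. Control libraries were the lowest. It was the one Frizzled called lower in Control over Proliferation cells (-0.16, SE 0.05, adjusted p = 0.00898) and the one called higher in Fbxl2 siRNA over Control cells (0.23, SE 0.05, adjusted p = 0.000594). In TNF over Control cells Fzd6 gave 0.15 (SE 0.05, adjusted p = 0.0161), a call that was lost without a filter on low counts and without TNF library A, Control library B or Control library C (adjusted p = 0.0697, 0.0907, 0.0667 and 0.0564 in that order).

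Fzd5 and Fzd8, a pair of closely related receptors, were high in TNF and Control cells. Fzd5 had 25.6, 22.8 and 23.1 CPM in TNF libraries, 11.01, 9.26 and 10.4 CPM in Fbxl2 siRNA libraries, 25.8, 23.6 and 25.5 CPM in Control libraries, and 8.62, 7.82 and 9.17 CPM in Proliferation libraries. TNF and Control libraries overlapped, and both lay above the other groups, with -1.29 (SE 0.08, adjusted p = 1.5e-11) in Fbxl2 siRNA over Control cells. Fzd8 had 6.11, 5.18 and 6.34 CPM in TNF libraries, 2.45, 2.48 and 2.53 CPM in Fbxl2 siRNA libraries, 5.36, 5.26 and 4.03 CPM in Control libraries, and 2.33, 1.79 and 1.91 CPM in Proliferation libraries. The Fbxl2 siRNA and Proliferation libraries were low. Fzd8 gave -0.98 (SE 0.14, adjusted p = 4.49e-06) in Fbxl2 siRNA over Control cells. TNF over Control cells gave -0.07 (SE 0.07, adjusted p = 0.437) for Fzd5 and 0.26 (SE 0.12, adjusted p = 0.0771) for Fzd8.

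Fzd3, Fzd4 and Fzd9 were lower in both treated groups than in Control cells. Fzd3, known for axon guidance and cell polarity, had 5.57, 4.56 and 4.61 CPM in TNF libraries, 4.80, 4.36 and 5.07 CPM in Fbxl2 siRNA libraries, 9.59, 9.26 and 10.6 CPM in Control libraries, and 8.98, 11.6 and 11.1 CPM in Proliferation libraries. Both treated groups were below both untreated groups without overlap, and the untreated groups overlapped. TNF over Control cells gave -0.99 (SE 0.11, adjusted p = 1.64e-07), Fbxl2 siRNA over Control cells -1.05 (SE 0.11, adjusted p = 7.41e-08), and Control over Proliferation cells -0.10 (SE 0.10, adjusted p = 0.36). Fzd4, which also binds the non-Wnt ligand Norrin, had 2.27, 1.80 and 1.84 CPM in TNF libraries, 2.42, 2.18 and 2.04 CPM in Fbxl2 siRNA libraries, 4.97, 4.74 and 4.14 CPM in Control libraries, and 4.74, 3.13 and 3.42 CPM in Proliferation libraries. The arrangement was that of Fzd3, with -1.22 (SE 0.16, adjusted p = 1.62e-06) in TNF over Control cells and -1.06 (SE 0.16, adjusted p = 6.9e-06) in Fbxl2 siRNA over Control cells.

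Fzd9 had 0.512, 0.552 and 0.213 CPM in TNF libraries, 1.07, 0.579 and 1.10 CPM in Fbxl2 siRNA libraries, 2.73, 1.43 and 1.44 CPM in Control libraries, and 0.362, 0.372 and 0.164 CPM in Proliferation libraries. Control was highest, with library A well above the other two of its group. TNF over Control cells gave -2.14 (SE 0.35, adjusted p = 3.54e-05). Fbxl2 siRNA over Control cells gave -1.06 (SE 0.30, adjusted p = 0.00521), which became -0.66 (adjusted p = 0.0749) without Control library A. The value of Fzd1 with differentiation is given above. In Control over Proliferation cells Fzd2 gave 1.31 (SE 0.05, adjusted p = 9.22e-15) and Fzd5 gave 1.55 (SE 0.08, adjusted p = 2.67e-13). There Fzd8 gave 1.28 (SE 0.15, adjusted p = 8.17e-08) and Fzd9 gave 2.66 (SE 0.38, adjusted p = 2.94e-06), whereas the uncalled Fzd4 gave 0.29 (SE 0.15, adjusted p = 0.072) and Fzd7 gave -0.08 (SE 0.05, adjusted p = 0.169).

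**Figure D4:**
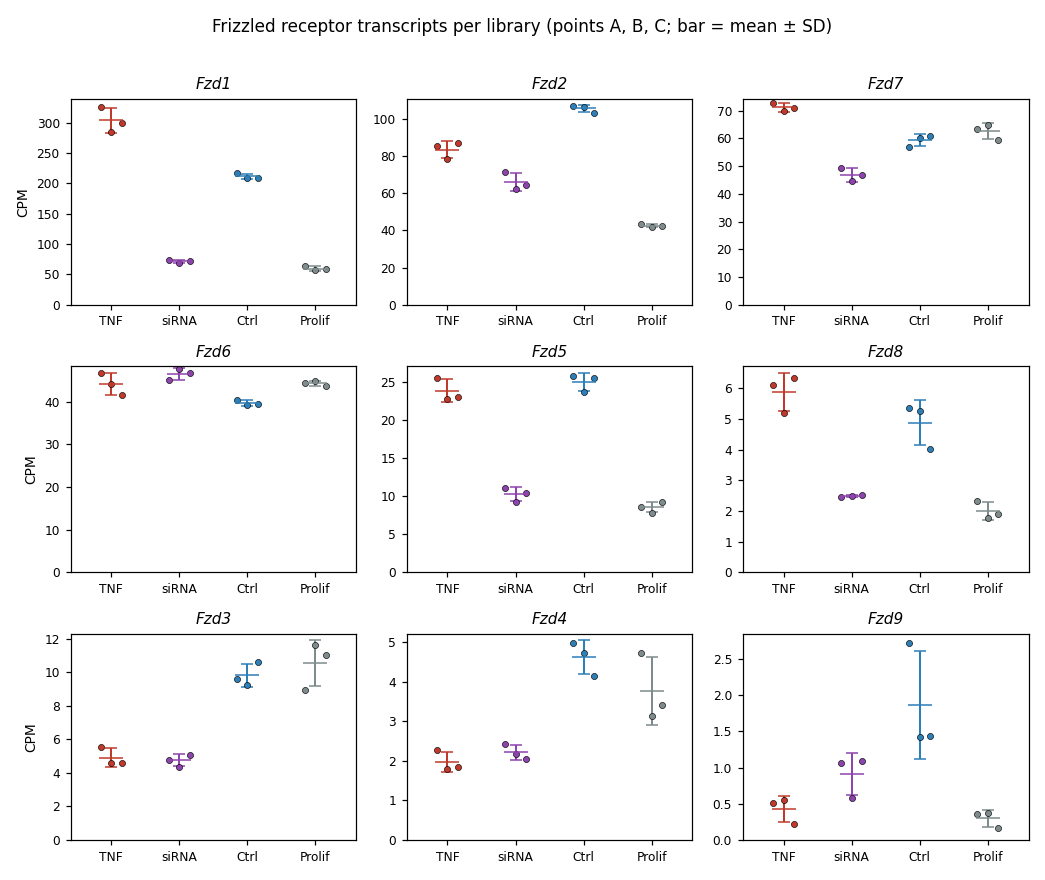
CPM (y axis, from 0, scaled for each gene) of the 9 Frizzled genes in each library of TNF, Fbxl2 siRNA (siRNA), Control (Ctrl) and Proliferation (Prolif) cells; points are libraries A, B and C, and bars are the mean ± SD. Fzd1, Fzd5 and Fzd8 are high in TNF and Control libraries, and Fzd3 and Fzd4 are low in TNF and Fbxl2 siRNA libraries.

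Among the Sfrp antagonists, Sfrp2 had the largest difference. It had 4.41, 3.75 and 4.15 CPM in TNF libraries, 0.178, 0.170 and 0.151 CPM in Fbxl2 siRNA libraries, 3.63, 4.01 and 2.48 CPM in Control libraries, and 0.164, 0.186 and 0.197 CPM in Proliferation libraries. TNF and Control libraries were high and overlapped, and Fbxl2 siRNA and Proliferation libraries were low, near the floor of a library, and overlapped. The log2 fold change was 4.18 (SE 0.26, adjusted p = 7.39e-12) in Control over Proliferation cells, 0.28 (SE 0.15, adjusted p = 0.12) in TNF over Control cells and -4.31 (SE 0.27, adjusted p = 2.7e-11), or 19.8-fold lower, in Fbxl2 siRNA over Control cells. Its promoter is the window with no GC box shown above.

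Sfrp1 had 1.22, 1.14 and 1.20 CPM in TNF libraries, 0.178, 0.238 and 0.189 CPM in Fbxl2 siRNA libraries, 0.749, 0.871 and 1.01 CPM in Control libraries, and 0.329, 0.521 and 0.395 CPM in Proliferation libraries. All 4 groups were apart, with Fbxl2 siRNA lowest, and -2.08 (SE 0.31, adjusted p = 6.14e-06) in Fbxl2 siRNA over Control cells. With TNF, Sfrp1 gave 0.45 (adjusted p = 0.085) over Control cells. With differentiation, Sfrp1 gave 1.07 (SE 0.26, adjusted p = 0.000938) in Control over Proliferation cells. Sfrp4 had 0.640, 0.588 and 0.567 CPM in TNF libraries, 1.07, 0.953 and 1.02 CPM in Fbxl2 siRNA libraries, 0.839, 1.08 and 0.899 CPM in Control libraries, and 1.55, 1.79 and 1.71 CPM in Proliferation libraries. TNF libraries were the lowest and Proliferation libraries the highest, and Fbxl2 siRNA and Control libraries overlapped. It was the one Sfrp gene lower in Control over Proliferation cells (-0.84, SE 0.18, adjusted p = 0.000321). In TNF over Control cells it gave -0.64 (SE 0.22, adjusted p = 0.0223), lost with DESeq2 (adjusted p = 0.0743), without TNF library C (adjusted p = 0.0631) and without Control library B (adjusted p = 0.105). As CPM per kb, Sfrp2 made up 82.1% of the summed Sfrp level in TNF cells and 78.1% in Control cells, and Sfrp4 made up 66.3% in Fbxl2 siRNA cells and 69.2% in Proliferation cells.

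The detected Dkk genes moved in opposite directions with differentiation and after Fbxl2 siRNA. Dkk2, an antagonist that binds Lrp5 and Lrp6, had 6.84, 7.65 and 6.91 CPM in TNF libraries, 27.2, 31.7 and 29.99 CPM in Fbxl2 siRNA libraries, 3.06, 3.48 and 2.84 CPM in Control libraries, and 19.5, 23.3 and 21.4 CPM in Proliferation libraries. No groups overlapped, and Fbxl2 siRNA libraries were the highest, above the dividing cells. Dkk2 gave -2.77 (SE 0.10, adjusted p = 9.3e-16) in Control over Proliferation cells, 1.19 (SE 0.12, adjusted p = 2.04e-08) in TNF over Control cells and 3.24 (SE 0.10, adjusted p = 1.07e-15), or 9.47-fold higher, in Fbxl2 siRNA over Control cells. Dkk3, a divergent member not known as an Lrp5 or Lrp6 ligand, had 15.9, 15.1 and 15.7 CPM in TNF libraries, 5.40, 6.02 and 6.39 CPM in Fbxl2 siRNA libraries, 15.7, 13.9 and 13.5 CPM in Control libraries, and 4.84, 4.62 and 4.57 CPM in Proliferation libraries. TNF and Control libraries overlapped and were high, with -1.28 (SE 0.08, adjusted p = 6.26e-11) in Fbxl2 siRNA over Control cells. With TNF, Dkk3 gave 0.11 (adjusted p = 0.221) over Control cells. Dkk3 gave 1.62 (SE 0.09, adjusted p = 6.29e-13) in Control over Proliferation cells. As CPM per kb, Dkk2 made up 81.9% of the summed Dkk level in Fbxl2 siRNA cells and 80.5% in Proliferation cells, and Dkk3 made up 70.6% in TNF cells and 83.5% in Control cells.

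**Figure D5:**
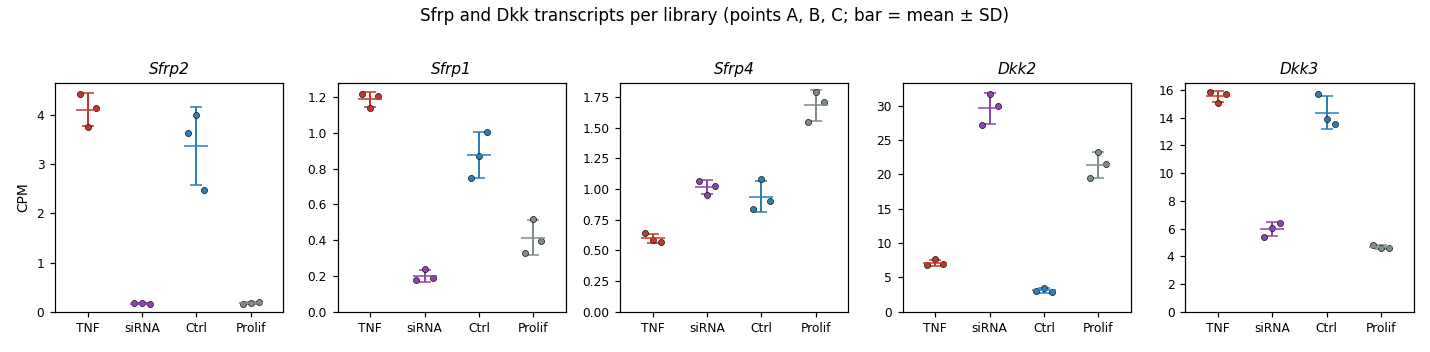
CPM (y axis, from 0, scaled for each gene) of the 3 tested Sfrp and 2 tested Dkk genes in each library of TNF, Fbxl2 siRNA (siRNA), Control (Ctrl) and Proliferation (Prolif) cells; points are libraries A, B and C, and bars are the mean ± SD. Sfrp2 and Dkk3 are high in TNF and Control libraries, and Dkk2 is high in Fbxl2 siRNA and Proliferation libraries.

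The treated groups were also set against each other and against dividing cells; the comparisons with Proliferation cells were added after the values had been seen, and all of these share libraries with those above. In TNF over Fbxl2 siRNA cells, 14 members were higher, 4 were lower (Wnt7b, Fzd9, Sfrp4 and Dkk2) and 6 were not called, with a median log2 fold change of 0.58. Among all genes 29.9% were called higher and 30.6% lower, with a median of -0.01. The largest difference was that of Wnt6, followed by Sfrp2 at 4.59 (SE 0.26, adjusted p = 3.75e-12). The uncalled members were Wnt2b, Wnt4, Wnt9a, Fzd3, Fzd4 and Fzd6. The call of Fzd9 (-1.08, SE 0.40, adjusted p = 0.0271) was lost without TNF library C, Fbxl2 siRNA library A or Fbxl2 siRNA library C (adjusted p = 0.122, 0.092 and 0.0933 in that order).

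In Fbxl2 siRNA over Proliferation cells, 9 members were higher, 7 were lower and 8 were not called, with a median log2 fold change of 0.24. Among all genes 30.9% were called higher and 31.1% lower, with a median of 0.0034, so the share of members called was near that of all genes. At least 2-fold changes were called for 5 members (20.8%), against 10.3% of all genes: Wnt9a (1.00, SE 0.07), Wnt6 (-1.09, SE 0.36), Fzd3 (-1.15, SE 0.11), Fzd9 (1.60, SE 0.43) and Sfrp1 (-1.01, SE 0.36). Sfrp2 gave -0.13 (SE 0.50, adjusted p = 0.843), Dkk2 gave 0.47 (SE 0.07, adjusted p = 1.41e-05), Wnt7b gave 0.53 (SE 0.10, adjusted p = 8.05e-05) and Fzd1 gave 0.27 (SE 0.06, adjusted p = 0.00033). The calls of Wnt6, Sfrp1 and Fzd5 were each lost without 1 or more single libraries: Wnt6 without Fbxl2 siRNA library C (adjusted p = 0.0732) or Proliferation library C (0.0517), Fzd5 without Fbxl2 siRNA library A (0.0874) or Proliferation library B (0.0688), and Sfrp1 without Fbxl2 siRNA library A (0.0695), Fbxl2 siRNA library C (0.0564) or Proliferation library B (0.106), and with DESeq2 (0.0574).

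In TNF over Proliferation cells, 14 members were higher, 5 were lower (Wnt7b, Fzd3, Fzd4, Sfrp4 and Dkk2) and 5 were not called, with a median log2 fold change of 0.93. Among all genes 36.3% were called higher and 36.5% lower, with a median of 4e-04. At least 2-fold changes were called for 15 members (62.5%), against 17.1% of all genes. Wnt10a was 3.26 (SE 0.05, adjusted p = 2.03e-21), Wnt6 4.44 (SE 0.18, adjusted p = 4.05e-15) and Sfrp2 4.46 (SE 0.25, adjusted p = 1.93e-12) on the log2 scale. The call of Wnt10b (0.37, SE 0.15, adjusted p = 0.0289) was lost without TNF library B (0.18, adjusted p = 0.263), Proliferation library B (adjusted p = 0.128) or Proliferation library C (adjusted p = 0.103).

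The machinery around these genes was described by 8 lists drawn up for the pathway. Their counts stand against all genes tested, of which 31% were higher and 23.6% lower in TNF over Control cells (median log2 fold change 0.03), 34.1% higher and 29.8% lower in Fbxl2 siRNA over Control cells (median 0.03), and 38.4% higher and 38.9% lower in Control over Proliferation cells (median -8e-04). Several of the lists lay near these shares, and nothing particular to a list is read from its count. Of the co-receptors and alternative receptors (8 tested), 2 were higher and 3 lower in TNF over Control cells (median log2 fold change 0.003), and 0 were higher and 5 lower in Fbxl2 siRNA over Control cells (median -0.59). With differentiation, 8 were higher in Control over Proliferation cells (median 0.52). Of Lrp5 and Lrp6, the co-receptors of the beta-catenin branch, Lrp6 was called in all 3 of these comparisons and Lrp5 only in Control over Proliferation cells. Lrp5 averaged 90.4 ± 3.82 CPM in TNF, 84.2 ± 3.34 CPM in Fbxl2 siRNA, 83.6 ± 1.77 CPM in Control and 73.1 ± 6.19 CPM in Proliferation cells (SD, n = 3 each). Lrp6 averaged 100.1 ± 8.74 CPM in TNF, 86.9 ± 7.95 CPM in Fbxl2 siRNA, 125.9 ± 3.45 CPM in Control and 88.4 ± 5.70 CPM in Proliferation cells (SD, n = 3 each). Lrp6 gave -0.33 (SE 0.07, edgeR adjusted p = 0.000317) in TNF over Control cells and -0.53 (SE 0.07, adjusted p = 1.14e-06) in Fbxl2 siRNA over Control cells. In Control over Proliferation cells it gave 0.51 (SE 0.07, adjusted p = 1.08e-06). Lrp4, the agrin receptor of the neuromuscular junction, varied more, with 64.8 ± 3.02 CPM in TNF, 86.1 ± 13.2 CPM in Fbxl2 siRNA, 246.3 ± 5.15 CPM in Control and 17.9 ± 2.66 CPM in Proliferation cells (SD, n = 3 each). The kinase Musk, its partner, fell with TNF (-1.05, SE 0.07, edgeR adjusted p = 2.32e-11) and gave -0.05 (SE 0.06, adjusted p = 0.464) in Fbxl2 siRNA over Control cells. Ptk7, a receptor of the polarity branch, was lower in Fbxl2 siRNA over Control cells (-0.65, SE 0.05, adjusted p = 1.18e-09) and higher in Control over Proliferation cells (0.53, SE 0.05, adjusted p = 9.44e-09). Ror2, a receptor for Wnt5a, was higher in Control over Proliferation cells (1.28, SE 0.14, adjusted p = 4.14e-08).

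Of the genes for acylation, secretion and inactivation of Wnt (6 tested of 7), 3 were higher and 2 lower in TNF over Control cells (median 0.20), and 1 was higher and 1 lower in Fbxl2 siRNA over Control cells (median -0.01); 4 were higher and 2 lower in Control over Proliferation cells (median 0.22). Porcn, the enzyme that attaches the lipid of Wnt proteins, averaged 25.8 ± 1.82 CPM in TNF cells, 12.6 ± 1.15 CPM in Fbxl2 siRNA cells, 48.2 ± 2.80 CPM in Control cells and 5.81 ± 0.521 CPM in Proliferation cells (SD, n = 3 each). Control was highest, with -0.90 (SE 0.07, edgeR adjusted p = 5.16e-10) in TNF over Control cells and -1.94 (SE 0.07, adjusted p = 2.28e-14) in Fbxl2 siRNA over Control cells. Wls, which carries Wnt proteins to the cell surface, averaged 1174 ± 57.9 CPM in TNF cells, 923.6 ± 35.6 CPM in Fbxl2 siRNA cells, 941.1 ± 20.5 CPM in Control cells and 795.9 ± 28.7 CPM in Proliferation cells (SD, n = 3 each). Tmed5, a protein of early secretion, was higher in TNF over Control cells (0.39, SE 0.07, adjusted p = 0.000117) and in Fbxl2 siRNA over Control cells (0.45, SE 0.07, adjusted p = 2.02e-05), and lower in Control over Proliferation cells (-0.88, SE 0.07, adjusted p = 1.61e-09).

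Of the R-spondin system (6 tested of 9), whose members set how much Frizzled stays at the surface, 1 was higher and 3 lower in TNF over Control cells (median -0.28), and 2 were higher and 4 lower in Fbxl2 siRNA over Control cells (median -0.48). With differentiation, 3 were higher and 1 lower in Control over Proliferation cells (median 0.44). The ligand Rspo3 averaged 2.24 ± 0.231 CPM in TNF cells, 1.68 ± 0.335 CPM in Fbxl2 siRNA cells, 0.559 ± 0.0611 CPM in Control cells and 0.440 ± 0.188 CPM in Proliferation cells (SD, n = 3 each). The receptor Lgr6 averaged 1.31 ± 0.429 CPM in TNF cells, 14.5 ± 0.439 CPM in Fbxl2 siRNA cells, 4.24 ± 0.753 CPM in Control cells and 23.6 ± 0.143 CPM in Proliferation cells (SD, n = 3 each). Lgr6 was thus low in TNF cells and high in Fbxl2 siRNA and dividing cells, with -1.70 (edgeR adjusted p = 2.66e-08) in TNF over Control cells and 1.78 (adjusted p = 2.49e-11) in Fbxl2 siRNA over Control cells. Znrf3, a ligase that removes Frizzled from the surface, was lower in TNF over Control cells (-0.33, SE 0.07, adjusted p = 0.000514) and in Fbxl2 siRNA over Control cells (-0.46, SE 0.07, adjusted p = 1.15e-05). It was higher in Control over Proliferation cells (0.57, SE 0.07, adjusted p = 4.55e-07). The receptor Lgr4 was lower in Fbxl2 siRNA over Control cells (-0.50, SE 0.06, adjusted p = 3.83e-07) and in TNF over Control cells (-0.23, SE 0.06, adjusted p = 0.00198). Lgr5 was higher in Control over Proliferation cells (2.98, SE 0.50, adjusted p = 1.72e-05) at a mean under 1 CPM in both groups. Of the other secreted or surface antagonists (3 tested of 11), 1 was higher and 2 lower in TNF over Control (median -0.48), and 1 was higher and 2 lower in Fbxl2 siRNA over Control (median -0.56); 2 were higher and 1 lower in Control over Proliferation cells (median 0.93). Kremen1, a surface partner of Dkk proteins, averaged 232.8 ± 7.71 CPM in TNF cells, 180.1 ± 13.04 CPM in Fbxl2 siRNA cells, 323.8 ± 4.63 CPM in Control cells and 170.2 ± 11.3 CPM in Proliferation cells (SD, n = 3 each). Apcdd1, a membrane inhibitor, rose by 1.19 (adjusted p = 7.49e-12) on the log2 scale in Fbxl2 siRNA over Control cells. It was also higher, by less, in TNF over Control cells (0.31, SE 0.07, adjusted p = 0.000892). Igfbp4, an IGF-binding protein that also inhibits Wnt signals, was lower in TNF over Control cells (-0.85, SE 0.08, adjusted p = 1.64e-08) and in Fbxl2 siRNA over Control cells (-0.56, SE 0.08, adjusted p = 3.67e-06), and higher in Control over Proliferation cells (1.37, SE 0.09, adjusted p = 6.85e-12).

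Of the dishevelled and destruction complex genes (18 tested of 19), 3 were higher and 6 lower in TNF over Control cells (median -0.05), and 0 were higher and 10 lower in Fbxl2 siRNA over Control cells (median -0.22). With differentiation, 12 were higher and 0 lower in Control over Proliferation cells (median 0.22). Beta-catenin itself, Ctnnb1, averaged 849 ± 9.91 CPM in TNF cells, 711 ± 22.1 CPM in Fbxl2 siRNA cells, 925 ± 2.46 CPM in Control cells and 788 ± 1.04 CPM in Proliferation cells (SD, n = 3 each). Axin2, both a scaffold of this complex and a target of beta-catenin, averaged 22.2 ± 0.392 CPM in TNF cells, 1.01 ± 0.118 CPM in Fbxl2 siRNA cells, 7.31 ± 0.341 CPM in Control cells and 0.554 ± 0.175 CPM in Proliferation cells (SD, n = 3 each). Its groups stood in the same order as those of Wnt10a, of Fzd1 and of the summed smooth muscle markers, and a link between them was not tested. Axin2 gave 1.60 (SE 0.08, edgeR adjusted p = 9.42e-13) in TNF over Control cells and -2.85 (adjusted p = 3.02e-13) in Fbxl2 siRNA over Control cells. Dvl3, one of the dishevelled proteins that relay the signal from Frizzled, fell in both comparisons: TNF over Control cells gave -0.48 (SE 0.06, adjusted p = 1.72e-06), and Fbxl2 siRNA over Control cells gave -0.998 (SE 0.07, adjusted p = 4.91e-11). Dvl3 rose with differentiation, by 0.91 (SE 0.06, adjusted p = 5.15e-11) in Control over Proliferation cells. The kinase Csnk1e was lower in TNF over Control cells (-0.36, SE 0.05, adjusted p = 1.93e-06) and in Fbxl2 siRNA over Control cells (-0.28, SE 0.05, adjusted p = 4.35e-05). Amer1, a membrane partner of APC, was higher in Control over Proliferation cells (0.46, SE 0.06, adjusted p = 7.67e-07). Of the nuclear effectors (14 tested), 3 were higher and 7 lower in TNF over Control (median -0.11), and 3 were higher and 8 lower in Fbxl2 siRNA over Control (median -0.20); 8 were higher and 3 lower in Control over Proliferation cells (median 0.32). Lef1, a partner of beta-catenin at its targets, averaged 44.2 ± 1.43 CPM in TNF cells, 9.24 ± 1.34 CPM in Fbxl2 siRNA cells, 20.1 ± 0.784 CPM in Control cells and 13.1 ± 1.58 CPM in Proliferation cells (SD, n = 3 each). Pygo1, a nuclear partner of beta-catenin, gave -0.59 (SE 0.10, adjusted p = 5.65e-05) in TNF over Control cells. After Fbxl2 siRNA, Pygo1 gave -1.48 (SE 0.11, adjusted p = 5.99e-10) over Control cells. Pygo1 rose with differentiation, by 2.74 (SE 0.13, adjusted p = 9.97e-14) in Control over Proliferation cells. The factor Tcf7l2 was lower in Fbxl2 siRNA over Control cells (-0.67, SE 0.07, adjusted p = 7.46e-08) and, by less, in TNF over Control cells (-0.21, SE 0.07, adjusted p = 0.0155). It was higher in Control over Proliferation cells (0.67, SE 0.07, adjusted p = 3.36e-08). Of the Groucho-type co-repressors, Tle1 was higher in TNF over Control cells (0.41, SE 0.06, adjusted p = 1.19e-05) and in Fbxl2 siRNA over Control cells (0.35, SE 0.06, adjusted p = 7.31e-05). Tle2 was higher in Control over Proliferation cells (1.06, SE 0.09, adjusted p = 5.99e-10).

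Of the transcriptional targets of the beta-catenin branch (13 tested of 18, Axin2 and Lef1 among them), 6 were higher and 5 lower in TNF over Control cells (median 0.31), and 3 were higher and 9 lower in Fbxl2 siRNA over Control cells (median -0.95). With differentiation, 8 were higher and 4 lower in Control over Proliferation cells (median 0.61). Nkd2, an inhibitor of dishevelled, averaged 5.41 ± 0.914 CPM in TNF cells, 0.181 ± 0.0726 CPM in Fbxl2 siRNA cells, 8.04 ± 1.13 CPM in Control cells and 0.269 ± 0.104 CPM in Proliferation cells (SD, n = 3 each). Ccn4, listed in the table under its older name Wisp1, averaged 823.6 ± 68.0 CPM in TNF cells, 295.5 ± 12.7 CPM in Fbxl2 siRNA cells, 570.7 ± 19.0 CPM in Control cells and 237.4 ± 2.98 CPM in Proliferation cells (SD, n = 3 each). Ccnd1, a cyclin of dividing cells, was higher in TNF over Control cells (1.18, edgeR adjusted p = 5.41e-13) and in Fbxl2 siRNA over Control cells (0.86, adjusted p = 8.44e-11), and lower in Control over Proliferation cells (-2.18, adjusted p = 1.82e-17). The cell cycle marker Mki67 was likewise lowest in Control and highest in Proliferation cells, with 171 ± 10.8 CPM in TNF cells, 175 ± 8.70 CPM in Fbxl2 siRNA cells, 92.3 ± 6.80 CPM in Control cells and 268 ± 15.96 CPM in Proliferation cells (SD, n = 3 each), and its part in the Ccnd1 result was not tested. Of the planar cell polarity and Wnt-calcium genes (18 tested of 19), 3 were higher and 6 lower in TNF over Control cells (median -0.01), and 5 were higher and 8 lower in Fbxl2 siRNA over Control cells (median 0.0056); 9 were higher and 7 lower in Control over Proliferation cells (median 0.18). Daam2, a formin that acts with dishevelled, fell in both treated groups, with -1.47 (adjusted p = 9.06e-14) in TNF over Control and -1.15 (adjusted p = 5.01e-12) in Fbxl2 siRNA over Control cells. Daam2 rose with differentiation, by 2.34 (SE 0.07, adjusted p = 6.98e-17) in Control over Proliferation cells. Prickle1, a core polarity protein, fell in TNF over Control cells (-1.53, SE 0.07, adjusted p = 3.9e-13) and in Fbxl2 siRNA over Control cells (-0.48, SE 0.07, adjusted p = 3.94e-06). Nfatc4, a calcium-activated factor, fell in Fbxl2 siRNA over Control cells (-1.55, SE 0.09, adjusted p = 4.56e-12) and was not called in TNF over Control cells (0.09, SE 0.08, adjusted p = 0.332). Nfatc4 rose with differentiation, by 2.09 (SE 0.09, adjusted p = 1.92e-14) in Control over Proliferation cells. Its relative Nfatc1 was lower in Fbxl2 siRNA over Control cells (-0.68, SE 0.07, adjusted p = 5.28e-08). The calcium-dependent kinase gene Camk2g was lower in TNF over Control cells (-0.24, SE 0.04, adjusted p = 3.78e-05), and the phospholipase gene Plcb3 was lower in Control over Proliferation cells (-0.47, SE 0.05, adjusted p = 7.91e-08).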

How the data were processed

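The values are unnormalised counts of reads per gene, as the authors deposited them: 21232 rows by 12 libraries of mRNA from C2C12 cells, with totals of 26416978 to 32917763. CASAVA, DESeq2 and mm10 are named in the submitters' processing notes. Aligner, counting tool, strand setting and annotation: not given in the sources used here. The software was edgeR 4.0.16 on limma 3.58.1, under R 4.3.3. Genes kept by filterByExpr were scaled by TMM and fitted with a robust quasi-likelihood model of 4 group means (8 residual degrees of freedom, median biological coefficient of variation 0.0482), with Benjamini-Hochberg adjustment over all 12736 genes. Each SE was derived from the log2 fold change and its F statistic. CPM used the TMM-scaled totals, and CPM per kb the union of exons in GENCODE M21 (GRCm38). The fit was also run on simulated counts drawn from its own estimates of spread, with few genes changed. Such counts cannot check those estimates, nor the scaling where many genes change. No replicate pair was identical, and chi-square per degree of freedom between replicates ran from 1.6 to 21.3, where sampling alone gives about 1. Floors cover counting error only, since reads are not independent molecules. The precision of each value follows from its counts. Alternatives were DESeq2 1.42.0, RLE scaling, no filter, 2-group fits, a replicate block, each library left out, other detection thresholds, library totals without TMM and transcript length.

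Every member is named. From each other list of the pathway, the up to 3 called genes of smallest p were named in each of the 3 comparisons for which the lists are described, beside Axin2, Lef1, Ctnnb1, Porcn, Wls, Lrp5 and Lrp6. Members and lists were chosen with earlier results of these data known. The authors' 3 deposited comparison tables were not used here.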

Additional observations from a re-analysis of the deposited data

How the results depend on the processing

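Of 144 member comparisons (24 members in 6 comparisons), 110 were called, and 100 of these kept the call in every alternative that gave a value, 17 for each of them but Wnt11 in Fbxl2 siRNA over Control, which had 16. The other 10 lost it in some, as given beside them above where a single library decided, and 9 uncalled ones gained a call in some. No count of members called moved by over 1.5 times. With a replicate block, 16 members in place of 15 were higher in Control over Proliferation cells and 8 in place of 7 were lower in Fbxl2 siRNA over Proliferation cells, and the other counts did not move. Whether the letters pair the libraries was not settled. Correlations of same-letter deviations ran from -0.141 to 0.272, and 6 of 18 were over 0.1. The highest were those of TNF with Control for letter A (0.272) and of Fbxl2 siRNA with Proliferation for letter B (0.248). By their labels the A libraries carry lower sample numbers than the B and C libraries, and what this reflects is not given. Over the 12 fits that left out 1 library, counts ran from 15 to 17 higher in Control over Proliferation, 6 to 8 higher and 6 to 8 lower in TNF over Control, 19 to 20 lower in Fbxl2 siRNA over Control, 3 to 4 lower in TNF over Fbxl2 siRNA, 8 to 10 higher and 5 to 8 lower in Fbxl2 siRNA over Proliferation, and 13 to 14 higher in TNF over Proliferation cells.

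Signs turned only in uncalled results, and the cause was not tested. Over the fits without 1 library, Wnt5a in TNF over Control ran from -0.1632 to 0.0563, Fzd3 in TNF over Fbxl2 siRNA from -0.0456 to 0.1121, Fzd6 in TNF over Proliferation from -0.0487 to 0.0351, and Wnt4 in TNF over Proliferation from -0.0991 to 0.2771, all as log2 fold changes. Fzd6 in TNF over Proliferation gave 6e-04 with only these 2 groups fitted. With at least 30 counts in all, or 10 in one library, as the threshold, 24 members were detected in place of 25. On library totals without TMM no mean CPM changed by over 2.06%. Depth limits the members in the groups where they lie under 1 CPM, among them Wnt11, Wnt2b, Wnt6, Fzd9, Sfrp1 and Sfrp2.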
